A study of Mus musculus with 6 samples.

Results

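The genes examined here encode the desmosomal cadherins and plaque proteins of mouse skin: the desmogleins Dsg1a, Dsg1b, Dsg2 and Dsg3, the desmocollins Dsc1, Dsc2 and Dsc3, and the plaque proteins plakophilin 1 (Pkp1), desmoplakin (Dsp) and plakoglobin (Jup). They were chosen by symbol. Non-control array probes whose RefSeq accession maps to one of these symbols were taken, which gave 14 probes for all 10 genes, out of 20141 genes with a symbol on the array. Each of the 10 passed the filter on dim probes, with its brightest probe well above background on every array, and they are among 16407 genes tested. RNA came from full-thickness excisional wounds of the dorsal skin of male C57/BL6 mice, made with a 4 mm biopsy punch (4 wounds) and harvested with a 6 mm punch on day 3. A harvested piece therefore holds the wound and a rim of the skin around it. The 2 groups were wild type (WT, 3 arrays) and FoxO1 +/- (3 arrays), the second carrying 1 intact copy of the gene for the forkhead transcription factor FoxO1, and each array was hybridised with Cy3-labelled cRNA from 200 ng of total RNA. The sample titles number the samples 1 to 3 within a genotype. Whether each is 1 animal and how wounds were pooled is not stated, and the series text speaks of 3 experiments at each mouse, so the p-values cover only the spread between arrays, part of which may be technical. Neither the way the Foxo1 allele was disrupted nor the age of the mice is given in the sources used here.

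Desmosomes are the junctions that tie the keratin filaments of neighbouring keratinocytes together. The desmogleins and desmocollins span the membrane and bind those of the next cell, plakoglobin and the plakophilins hold their tails, and desmoplakin links this plaque to keratin. In the epidermis the cadherins are layered: Dsg3 and Dsc3 are known mainly from the basal and lower layers, Dsg1 and Dsc1 from the upper layers. Keratinocytes at a wound edge are known to alter these junctions as they migrate. The question here is whether the transcripts of this junction differed between wounds of the 2 genotypes.

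A level below is the log2 signal of a probe relative to the 75th percentile of its array, and a difference is FoxO1 +/- minus WT on that log2 scale. Levels of different probes are not comparable with each other, so only differences within a probe are read. Across arrays, 64.3% to 71.9% of non-control spots were well above background, the lowest share on FoxO1 +/- replicate 3, and no spot was saturated. The check of the genotype, Foxo1 itself, was at 1.81 to 2.32 in WT and at 1.49 to 1.69 in FoxO1 +/- wounds, a difference of -0.48 (SE 0.14, limma adjusted p 0.649). Since the site of the disruption is not known here, the probe may lie outside it. Of the 16407 genes, 1 passed an adjusted p of 0.05 in limma, or 0.00609%, and it was not a desmosome gene.

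No desmosome gene passed the adjusted threshold, while 9 of the 10 had a lower mean in FoxO1 +/- wounds and 1, Dsc2, had a higher mean. The median difference over the 10 genes was -0.23, against 0.01 over all genes tested, of which 46.1% had a lower mean. At an unadjusted limma p of 0.05, 1 of the 10 was called, Dsg2, against 6.29% of all genes (2.81% called lower). The 3 FoxO1 +/- arrays lay entirely below the 3 WT arrays for 2 of the 10, Dsg2 and Dsc3, where this held for 4.55% of all genes (11.5% counting both directions). Single arrays weighed heavily on these numbers. Without FoxO1 +/- replicate 2 the median was -0.03 and 6 of the 10 were lower, and without WT replicate 1 the median was -0.12 and 8 were lower. Without FoxO1 +/- replicate 3 the median was -0.39 with all 10 lower.

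**Figure D1:**
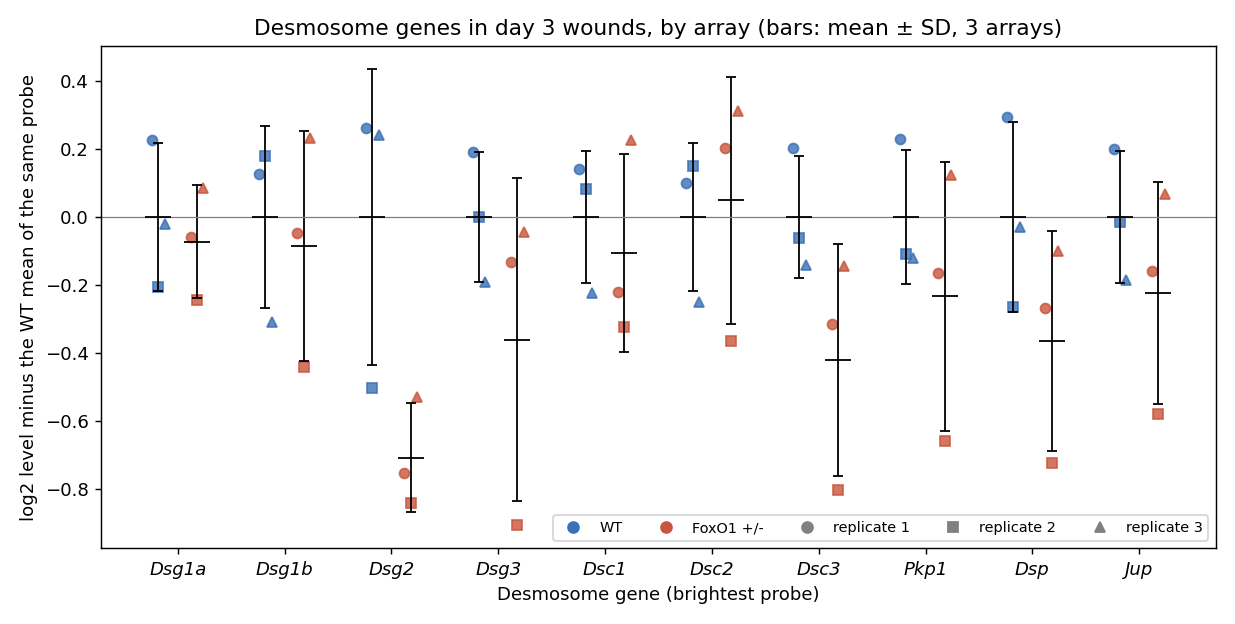
Level of each of the 10 desmosome genes on each array, as the log2 level of its brightest probe minus the WT mean of that probe (vertical axis), for WT (blue) and FoxO1 +/- (red) arrays, with marker shapes for replicates 1 to 3 and bars for mean ± SD (n = 3). FoxO1 +/- replicate 2 (red squares) is the lowest array for all 10 genes, and the groups are separate for Dsg2 and Dsc3.

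Among the desmogleins, the difference in means was largest for Dsg2. Dsg2, the desmoglein of simple epithelia that is also made in the basal layer and the hair follicle, was at -2.78, -3.55 and -2.80 on WT replicates 1 to 3 and at -3.80, -3.88 and -3.57 on FoxO1 +/- replicates 1 to 3. The 3 FoxO1 +/- arrays were lower than every WT array, with WT replicate 2 close above FoxO1 +/- replicate 3. The difference was -0.71 (SE 0.23, 95% interval -1.26 to -0.16), or 0.612 of the WT level, with a limma p of 0.0198 before and 0.687 after adjustment over all genes. Leaving out single arrays gave -0.96 to -0.58. With normexp background correction, whose offset of 50 shrinks the differences of dim probes, it was -0.34. The linear signal of this probe was 98.5 to 186 on WT and 75.6 to 78.7 on FoxO1 +/- arrays. A dimmer Dsg2 probe was well above background on 2 of 3 WT arrays and on 0 of 3 FoxO1 +/- arrays, and gives no bound above 1-fold.

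Dsg3, the desmoglein of the lower epidermal layers, was at 0.42, 0.23 and 0.04 in WT and at 0.10, -0.68 and 0.19 in FoxO1 +/- wounds. The groups overlapped, and 1 array, FoxO1 +/- replicate 2, stood well below the other 5. The difference was -0.36 (SE 0.25, 95% interval -0.96 to 0.24, limma adjusted p 0.900), and without that array it was -0.09. A dimmer Dsg3 probe gave -0.32 (SE 0.28) and the same lowest array.

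Dsg1a and Dsg1b, which encode close copies of the desmoglein of the upper layers, showed differences near 0. Dsg1a was at 2.61, 2.18 and 2.36 in WT and 2.33, 2.14 and 2.47 in FoxO1 +/- wounds, a difference of -0.07 (SE 0.14, 95% interval -0.42 to 0.27). Dsg1b was at -0.06, -0.00 and -0.49 in WT and -0.23, -0.62 and 0.05 in FoxO1 +/- wounds, a difference of -0.08 (SE 0.21, 95% interval -0.60 to 0.43). The genotypes overlapped for both genes, and the limma adjusted p was 0.991 and 0.994. Their sequences are alike enough that 1 probe may bind the transcripts of both, which was not tested. The third copy, Dsg1c, was left out of the fit because its spot was marked an outlier on WT replicate 1. On the other arrays it was at -1.16 and -1.58 in WT and at -1.33, -1.75 and -1.06 in FoxO1 +/- wounds, with the groups overlapping.

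Dsc3, the desmocollin of the basal layers, was at 1.81, 1.55 and 1.47 in WT and at 1.29, 0.81 and 1.46 in FoxO1 +/- wounds. The groups did not overlap, although their nearest arrays, replicate 3 of each, were almost level. The difference was -0.42 (SE 0.19, 95% interval -0.88 to 0.04), or 0.747 of the WT level, with a limma p of 0.0689 before and 0.823 after adjustment. It was -0.23 without FoxO1 +/- replicate 2 and -0.56 without FoxO1 +/- replicate 3. A dimmer Dsc3 probe was at -1.28, -1.47 and -1.63 in WT and at -1.75, -2.30 and -1.71 in FoxO1 +/- wounds. It separated the groups in the same order, with a difference of -0.46 (SE 0.19, limma p 0.0464 before and 0.736 after adjustment over all kept probes).

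Dsc1, the desmocollin of the upper layers, was at 1.62, 1.56 and 1.26 in WT and at 1.26, 1.16 and 1.71 in FoxO1 +/- wounds. Its highest array was a FoxO1 +/- one, and the difference was -0.11 (SE 0.17, 95% interval -0.53 to 0.32, limma adjusted p 0.987). Dsc2, the most widely made desmocollin, was at 0.48, 0.53 and 0.13 in WT and at 0.58, 0.02 and 0.69 in FoxO1 +/- wounds. It was the 1 member with a higher mean, by 0.05 (SE 0.21, 95% interval -0.46 to 0.55, limma adjusted p 0.994), and its sign turned when WT replicate 3, FoxO1 +/- replicate 1 or FoxO1 +/- replicate 3 was left out. The desmosomal cadherin genes lie next to each other on chromosome 18. In the RefSeq table (GRCm38) the order of protein-coding genes there is Dsc3, Dsc2, Dsc1, Dsg1c, Dsg1a, Dsg1b, Dsg4, Dsg3 and Dsg2.

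**Figure D2:**
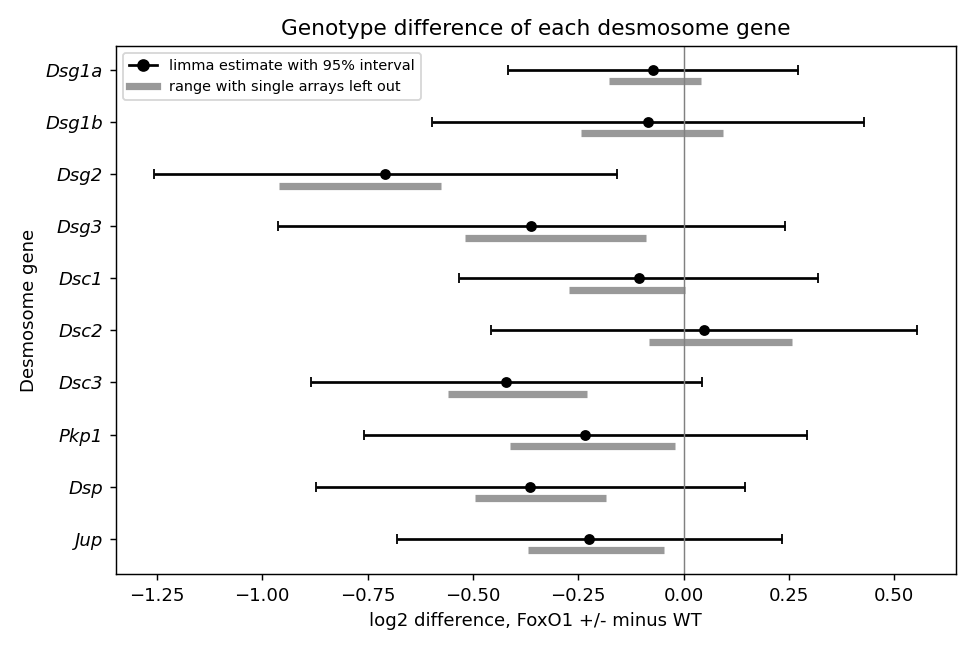
Difference of each desmosome gene, FoxO1 +/- minus WT, on the log2 scale (horizontal axis), with the limma estimate and its 95% interval (black) and the range over the 6 fits that leave out 1 array each (grey). The interval excludes 0 for Dsg2 alone, before adjustment over all genes, and the grey range crosses 0 for Dsg1a, Dsg1b, Dsc1 and Dsc2.

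The plaque genes all had lower means in FoxO1 +/- wounds, with overlapping groups and 95% intervals that held 0. Dsp, which encodes the protein that anchors keratin filaments, was read from a probe printed on 10 spots, of which 8 or 9 per array were free of outlier marks. The SD between those spots was 0.06 to 0.08 on the log2 scale, against 0.28 and 0.32 between the arrays of a genotype. Dsp was at 5.15, 4.59 and 4.83 in WT and at 4.59, 4.14 and 4.76 in FoxO1 +/- wounds. WT replicate 1 was the highest and FoxO1 +/- replicate 2 the lowest, with the other arrays mixed. The difference was -0.36 (SE 0.21, 95% interval -0.87 to 0.15, limma adjusted p 0.866). It was -0.18 without FoxO1 +/- replicate 2 and -0.22 without WT replicate 1. A dimmer Dsp probe gave -0.25 (SE 0.29).

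Pkp1, the plakophilin of the upper layers that stabilises the plaque, was at 5.70, 5.36 and 5.35 in WT and at 5.30, 4.81 and 5.59 in FoxO1 +/- wounds. The difference was -0.23 (SE 0.22, 95% interval -0.76 to 0.29, limma adjusted p 0.937), and without FoxO1 +/- replicate 2 it was -0.02. Jup, which encodes plakoglobin, the armadillo protein shared with adherens junctions, had a single probe, at -2.11, -2.32 and -2.50 in WT and at -2.47, -2.89 and -2.24 in FoxO1 +/- wounds. Its difference was -0.22 (SE 0.19, 95% interval -0.68 to 0.23, limma adjusted p 0.926), -0.07 with normexp background correction and -0.05 without FoxO1 +/- replicate 2. Pkp1 and Jup overlapped between the genotypes in the same way, with FoxO1 +/- replicate 3 above 2 of the 3 WT arrays for both.

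The promoters of Dsp and Jup are printed because FoxO1 binds forkhead sites and the mice differ in its gene. Both are RefSeq promoters of build GRCm38.p6, from 250 bases before to 50 bases after the start, and they are those held by the table used here. The letters GTAAACA and the shorter TAAACA, which lies within it, were searched on both strands. A match of TAAACA is in capitals. Dsp lies on the plus strand at chr13:38151044-38151343 and Jup on the minus strand at chr11:100397741-100398040.
Dsp: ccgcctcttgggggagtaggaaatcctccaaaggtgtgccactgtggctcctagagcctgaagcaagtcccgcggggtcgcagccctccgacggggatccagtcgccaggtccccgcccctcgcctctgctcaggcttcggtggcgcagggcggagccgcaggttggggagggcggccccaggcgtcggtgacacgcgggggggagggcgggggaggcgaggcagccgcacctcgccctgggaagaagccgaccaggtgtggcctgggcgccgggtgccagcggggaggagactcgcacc
Jup: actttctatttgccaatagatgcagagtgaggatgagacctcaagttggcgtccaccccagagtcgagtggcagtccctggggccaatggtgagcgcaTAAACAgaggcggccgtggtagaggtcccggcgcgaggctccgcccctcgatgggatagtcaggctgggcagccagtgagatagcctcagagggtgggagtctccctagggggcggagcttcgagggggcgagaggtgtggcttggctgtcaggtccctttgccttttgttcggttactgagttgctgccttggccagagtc
Neither window held GTAAACA, which was in 3.65% of 32851 promoters of that length. Jup held TAAACA once, at position -152 relative to the start, and Dsp did not, where 13.4% of those promoters held it. The GC content was 73.0% for Dsp and 60.7% for Jup, with a median of 52.7% over all promoters. A match describes letters only, and an absent one says nothing of binding elsewhere.

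**Figure D3:**
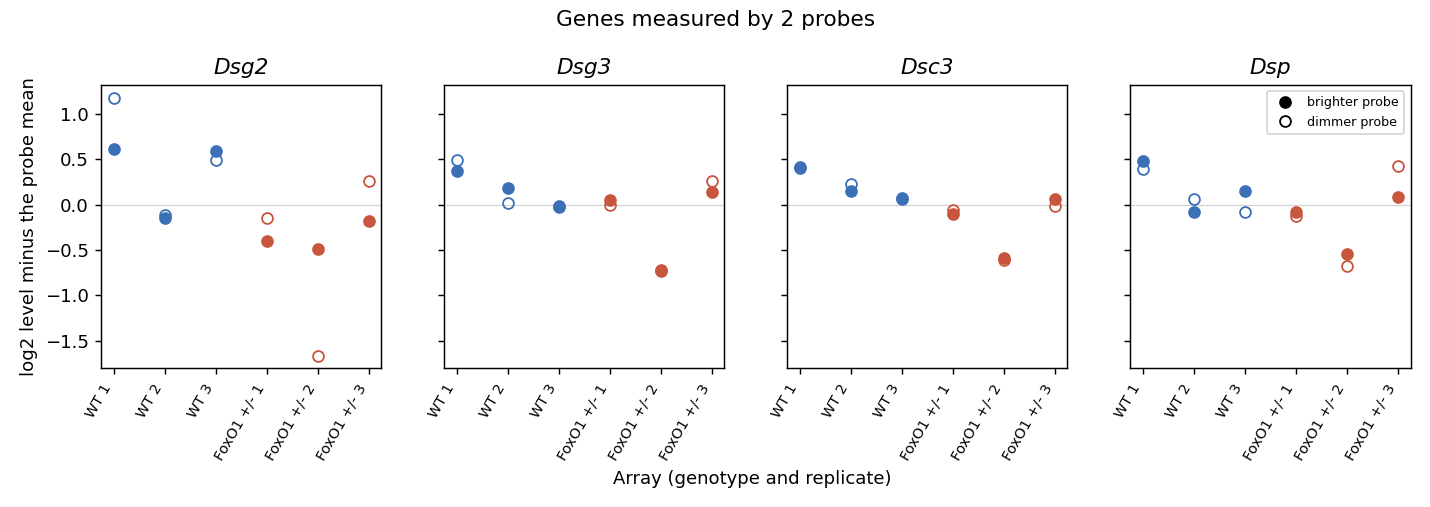
Log2 level on each array minus the mean of the probe (vertical axis) for the 4 genes with 2 probes, with filled points for the brighter and open points for the dimmer probe, WT in blue and FoxO1 +/- in red. For Dsg3, Dsc3 and Dsp both probes are lowest on FoxO1 +/- replicate 2. For Dsg2 the dimmer probe was near background and spreads more widely.

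Across the 6 arrays the members moved largely together. FoxO1 +/- replicate 2 was the lowest array for all 10 genes. The highest was WT replicate 1 for 7 genes, and FoxO1 +/- replicate 3 for the other 3, Dsg1b, Dsc1 and Dsc2. The mean of the 10 genes, each centred on its own mean, was 0.32, 0.05 and 0.00 in the 3 WT wounds, by replicate number, and -0.07, -0.46 and 0.15 in the FoxO1 +/- wounds. The 2 genotypes thus overlapped in this mean, with FoxO1 +/- replicate 3 above 2 of the 3 WT arrays. The closest pair of profiles was Pkp1 and Jup, at a Euclidean distance of 0.154 over the 6 centred values, and the farthest was Dsg2 and Dsc2 at 1.30. Of all other genes, those nearest to the mean profile were Epha2, which encodes an ephrin receptor, at a distance of 0.102, Otop2 at 0.109, Sec14l2 at 0.126, Zfp185 at 0.130 and Prom2 at 0.134, where the median gene was at 0.681. Their own differences ran from -0.19 for Epha2 to -0.32 for Otop2, and the smallest limma p among the 5 was 0.101 before adjustment.

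The mean of keratinocyte marker genes moved partly with the members, though not every marker did. The mean of 10 keratinocyte markers, among them Trp63, Itgb4 and Krtdap, all well above background on every array, was centred at 0.26, -0.11 and -0.05 in WT and at -0.02, -0.26 and 0.17 in FoxO1 +/- wounds. The highest and lowest arrays of this centred mean were the same ones as for the mean of the desmosome genes. The member mean minus this marker mean was 0.06, 0.16 and 0.05 in WT and -0.05, -0.20 and -0.02 in FoxO1 +/- wounds, which was not tested. Between genotypes, 6 of the 10 markers had lower and 4 higher means (46.1% of all genes had a lower mean), with a median difference of -0.03. The log2 summed signal of the markers was 7.69 to 7.95 in WT and 7.73 to 8.17 in FoxO1 +/- wounds, so the genotypes overlapped. By that measure the order differed, with FoxO1 +/- replicate 3 highest and WT replicate 2 lowest. Single markers did not all follow the centred mean. Itgb4 had the same highest and lowest arrays, but Trp63 stayed between 2.71 and 2.88 and was highest on FoxO1 +/- replicate 1. Krtdap was lowest on WT replicate 2 (6.40), and Dst was highest on FoxO1 +/- replicate 2 (0.43). In such bulk samples fewer keratinocytes and less RNA per keratinocyte cannot be told apart.

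Relative to these markers the desmosome genes were measured again, a scaling chosen after seeing the data: each array was set to its keratinocyte marker mean in place of its 75th percentile, and all genes were refitted. This moved the median of all genes to 0.08, and 25.9% of them had a lower mean. The median of the 10 desmosome genes was -0.16, with 9 of 10 lower. The FoxO1 +/- arrays lay entirely below the WT arrays for 3 of the 10, namely Dsg2, Dsc3 and Dsp. This held for 1.72% of all genes, against 4.55% in the first scaling. Subtracting a mean of epithelial markers acts differently on epithelial genes and on the rest. The shares over all genes in this scaling are therefore not a like background for the members. Dsp was then at 1.67, 1.48 and 1.66 in WT and at 1.39, 1.18 and 1.37 in FoxO1 +/- wounds, a difference of -0.29 (SE 0.23). Dsc3 was at -1.67, -1.57 and -1.71 against -1.91, -2.15 and -1.93, a difference of -0.35 (SE 0.23). In this scaling limma drew the variance of each gene strongly toward a common value, with an SE of 0.22 to 0.24 for all 10 members. These SEs and p-values therefore do not give the spread of a single gene. The SD between arrays of Dsp was 0.10 in WT and 0.12 in FoxO1 +/- wounds. The Dsp groups had overlapped in the first scaling. The differences of Dsg1a (-0.00) and Dsg1b (-0.01) were nearest to 0. None of the 10 passed the limma adjusted threshold, which 0.494% of all genes passed, and 1, Dsg2, had an unadjusted p under 0.05 (0.0122, adjusted 0.540), against 1.80% of all genes called lower.

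**Figure D4:**
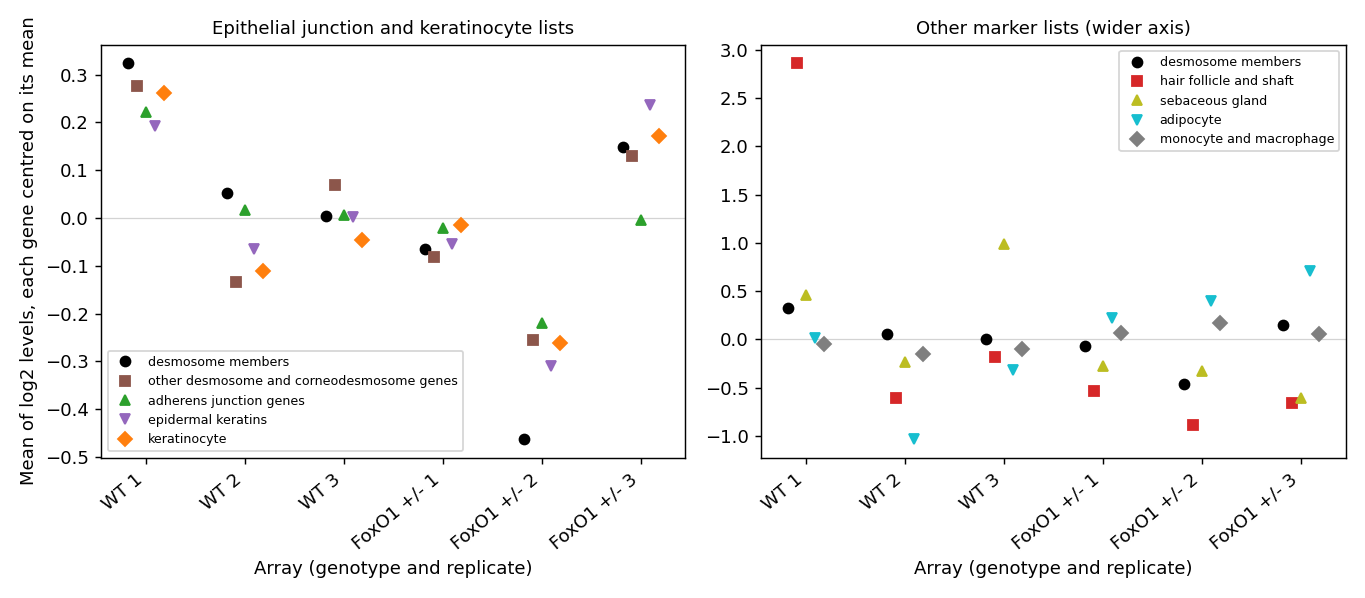
Mean log2 level of each gene list on each array, every gene centred on its own mean over the 6 arrays (vertical axis), for epithelial lists (left) and other marker lists (right, on a wider axis), with the 10 desmosome genes in black on both sides. FoxO1 +/- replicate 2 is lowest for all 5 epithelial lists, and WT replicate 1 stands apart in hair follicle markers at 2.86.

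Other cell types were measured in the same way. WT replicate 1, the highest array for 7 members, carried far more hair follicle and shaft signal than the rest: the log2 summed signal of the 17 kept markers was 6.13 there, 2.63 and 2.74 in the other WT wounds and 2.38 to 2.70 in FoxO1 +/- wounds. Of the 19 listed genes, 17 to 19 were well above background on WT and 13 to 16 on FoxO1 +/- arrays. The count of 13 was on FoxO1 +/- replicate 3, the array with the lowest share of all spots well above background (64.3%). The part of the hair follicle signal in the members' levels was not tested beyond the fit without WT replicate 1. Of 10 sebaceous gland markers, 9 or 10 were well above background on each array. Their log2 summed signal was 6.82 to 7.62 in WT and 6.50 to 6.69 in FoxO1 +/- wounds, and their centred mean was highest on WT replicates 3 (0.99) and 1 (0.46), the 2 arrays on which Dsg2 was highest. Their part in the Dsg2 difference was not tested. Adipocyte markers went the other way, with a log2 summed signal of 7.34 to 8.39 in WT and 8.56 to 8.95 in FoxO1 +/- wounds and all 9 markers well above background on every array. Monocyte and macrophage markers did too, at 8.34 to 8.39 against 8.49 to 8.55, with all 8 probed markers well above background. Endothelial markers were at 5.57 to 5.65 against 5.75 to 5.94, while neutrophil (9.04 to 9.52 against 9.08 to 9.55) and fibroblast markers (9.80 to 9.87 against 9.87 to 9.99) overlapped. These shifts accompanied the lower desmosome means, and their part in them was not tested.

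The basal and the suprabasal cadherins were then set side by side within each array, a grouping made after their values were seen and therefore not tested. The mean of Dsg3 and Dsc3, centred per gene, was 0.39, 0.16 and 0.03 in WT and -0.03, -0.66 and 0.10 in FoxO1 +/- wounds. The mean of Dsg1a, Dsg1b and Dsc1 was 0.21, 0.06 and -0.14 in WT and -0.06, -0.29 and 0.22 in FoxO1 +/- wounds. The first minus the second was 0.18, 0.10 and 0.17 in WT and 0.04, -0.37 and -0.12 in FoxO1 +/- wounds. The basal pair was thus lower relative to the suprabasal genes on all 3 FoxO1 +/- arrays than on any WT array, and FoxO1 +/- replicate 1 lay near the WT arrays. Dsc3 had separated the genotypes by itself, so this order partly restates its values. No share over all genes was measured for such a contrast.

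**Figure D5:**
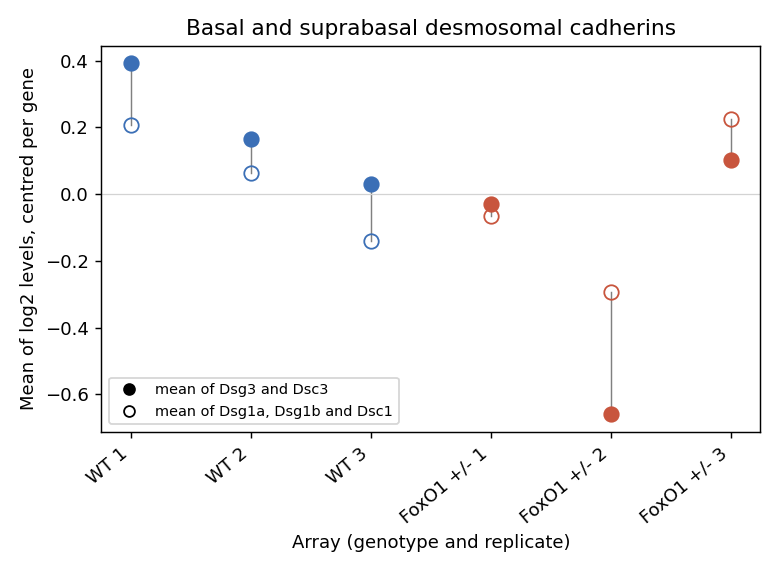
Mean log2 level of the basal cadherins Dsg3 and Dsc3 (filled points) and of the suprabasal cadherins Dsg1a, Dsg1b and Dsc1 (open points) on each array, each gene centred on its mean over the 6 arrays, WT in blue and FoxO1 +/- in red. The filled point is above the open one by 0.10 to 0.18 in WT, and by 0.04, -0.37 and -0.12 in FoxO1 +/- wounds.

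Other genes of epithelial junctions were read from 3 lists. Of 9 further desmosome and corneodesmosome genes, 7 were tested, 6 had lower and 1 higher means (46.1% of all genes had a lower mean), and the median difference was -0.12. By limma 0 passed the adjusted threshold in either direction, and 1 of 7 had an unadjusted p under 0.05, against 6.29% of all genes (2.81% called lower). That gene was Pkp3, the plakophilin found in most epithelial desmosomes, at 3.36, 3.23 and 3.39 in WT and at 2.91, 2.54 and 2.95 in FoxO1 +/- wounds. All 3 FoxO1 +/- arrays were clearly below all 3 WT arrays, a difference of -0.52 (SE 0.13, limma p 0.00622 before and 0.534 after adjustment). The cornified envelope linker Ppl differed by -0.12 (SE 0.14) and Cdsn, the corneodesmosome adhesion protein, by -0.19 (SE 0.22), both with overlapping groups. Dsg4, the desmoglein of the hair shaft, was well above background on 1 of 3 WT arrays and on 0 of 3 FoxO1 +/- arrays and was not tested.

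Of 11 adherens junction genes, 10 had lower and 1 higher means (46.1% of all genes had a lower mean), with a median of -0.12. By limma 0 passed the adjusted threshold in either direction, and 0 had an unadjusted p under 0.05, against 6.29% of all genes. The FoxO1 +/- arrays lay entirely below the WT arrays for 1 of the 11 and entirely above for 1, where 11.5% of all genes separated in either direction. Cdh1, which encodes E-cadherin, was at 2.39, 1.87 and 2.05 in WT and at 1.83, 1.34 and 1.91 in FoxO1 +/- wounds, a difference of -0.41 (SE 0.20, limma adjusted p 0.830). Its order of arrays, highest on WT replicate 1 and lowest on FoxO1 +/- replicate 2, was that of Dsp. Cdh3, which encodes P-cadherin of basal and follicle cells, differed by -0.46 (SE 0.24) and the nectin partner Afdn by -0.30 (SE 0.15). Of 11 epidermal keratins, whose filaments desmosomes anchor, 6 had lower and 5 higher means (46.1% of all genes had a lower mean), with a median of -0.08. None passed the limma adjusted threshold, and 0 had an unadjusted p under 0.05, against 6.29% of all genes. The groups did not overlap for 1 of the 11, Krt17, which was lower in FoxO1 +/- wounds, as were 4.55% of all genes. Krt17, a keratin of wound-edge and follicle cells, differed by -0.61 (SE 0.27), Krt15, of basal and bulge cells, by -0.77 (SE 0.45), and Krt77 by 0.54 (SE 0.34).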

How the data were processed

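The authors deposited linear spot intensity values, extracted with Agilent Feature Extraction 10.7.1.1 per the file headers, or 9.1 per the submitters' processing notes. Their processed signal is background-subtracted and detrended within an array and not scaled between arrays, per the file headers. The 6 arrays share 1 slide and 1 scan. The authors' deposited value table holds the same intensity values within 0.497%. Here log2 of the processed signal was averaged over the unflagged spots of a probe, and the 75th percentile of an array's non-control probes was subtracted from it. The array design is annotated on mm9, and symbols came from unversioned RefSeq accessions (GRCm38 table): 26576 of 55681 probes had one. Probes had to be well above background on all arrays of 1 genotype or of both, 36 probes lacking an unflagged spot on an array were dropped, and the brightest kept probe stood for a gene. The test was limma 3.58.1 (two-sided, lmFit then eBayes; R 4.3.3), and p-values were adjusted over 16407 genes by Benjamini-Hochberg. With 3 arrays per group, 0.1 is the smallest exact permutation p. The number of arrays limits the precision. The members, the lists and the tests were chosen with earlier results of these data known. All 10 members are named, and of each junction list the 3 genes with the smallest p. The alternatives were normexp (on the median spot signal, since the files hold no mean signal), quantile normalization, other filters and probe rules, the value table, slide row, the replicate number as a block, and leaving out single arrays.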

Additional observations from a re-analysis of the deposited data

How the results depend on the processing

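The number of desmosome genes past the limma adjusted threshold was 0 under every alternative run, with 0 to 2 at an unadjusted p under 0.05. The member median was lower than 0 throughout: -0.29 with quantile normalization, -0.18 with normexp and -0.39 to -0.03 with single arrays left out, lowest without FoxO1 +/- replicate 3 and nearest 0 without FoxO1 +/- replicate 2. The genes Dsg2, Dsg3, Dsc3, Pkp1, Dsp and Jup kept a lower mean under all 16 alternatives run, not all of which could change the values. The replicate block leaves each difference as it was, and both fits on slide row give the same differences. With no filter on dim probes, or with probes well above background on all 6 arrays, the same probe stood for each member. With single arrays left out, Dsg1a ran from -0.18 to 0.041, Dsg1b from -0.24 to 0.093, Dsc1 from -0.27 to 0.0028 and Dsc2 from -0.081 to 0.26. The count of all genes past the threshold was 1, and it was 0 with normexp, 2 with quantile normalization, 3 with no filter on dim probes, 0 with probes well above background on all 6 arrays, 7 with slide row as a block, 4 within slide row 1 and 81 with arrays scaled to keratinocyte markers, and 0 to 30 with single arrays left out, the highest without WT replicate 2. Counts of 0 came with 681 to 1234 genes at an unadjusted limma p under 0.05. In both fits on slide row, the difference rests on FoxO1 +/- replicate 1 alone, the 1 FoxO1 +/- array in the row of the WT arrays, assumed to vary like the others, and the member median was -0.16. Same-numbered arrays of the genotypes did not deviate together (correlations of -0.07, -0.14 and -0.30). With 3 arrays per group such deviations constrain each other, so whether same-numbered arrays were paired cannot be settled from them. With the replicate number as a block, 0 genes passed. Each such block holds 1 array per genotype, so the differences and the member median of -0.23 are the same by construction. Dim probes, those of Dsg2 and Jup among the members, are limited by their signal over background.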
